A study of Homo sapiens with 6 samples.

Results

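Chemokines are small secreted or membrane-anchored proteins that guide white blood cells along a concentration gradient. The 10 chemokine genes described here, CXCL1, CXCL2, CXCL3, CXCL5, CXCL6, CXCL8, CXCL16, CX3CL1, CCL2 and CCL20, were found by gene symbol among 38126 Ensembl gene IDs in RNA-seq data of the human kidney line HK-2. HK-2 cells are immortalised, and are labelled as epithelium of the proximal tubule, the kidney segment that reabsorbs most of the filtrate. The treated group held 3 libraries of cells given phosphoramidon for 24 h, which blocks neprilysin and other zinc-dependent peptidases, and the comparison group held 3 libraries of untreated cells. Both groups grew without serum in a keratinocyte medium to which pituitary extract and epidermal growth factor had been added, and were treated when nearly confluent. No dose is given, the untreated titles also carry the unexplained letters CSE, and nothing says that libraries of a group came from separate cultures. A p-value here thus sets the group difference against the scatter between these libraries, and that scatter may be technical.

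The family divides by the spacing of its first cysteines into CXC, CC and CX3C types. CXC ligands with a glutamate-leucine-arginine motif (CXCL1, CXCL2, CXCL3, CXCL5, CXCL6 and CXCL8) act through CXCR2 and, for some of them, CXCR1, and mainly draw neutrophils. CCL2 acts through CCR2 and draws monocytes, and CCL20 acts through CCR6 and draws dendritic cells and lymphocytes. CXCL16 and CX3CL1 are made as transmembrane proteins that can hold cells in place and are cut free by the metalloproteinases ADAM10 and ADAM17. Injured tubular epithelium is a known source of several of these ligands, many of which are induced by the transcription factor NF-kappaB and have short-lived mRNAs with AU-rich tails.

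Of the 10 genes, 6 lie in a cluster of 359 kb on chromosome 4 (73740506 to 74099293 on GRCh38). Promoters were read from RefSeq (GRCh38.p14), from 250 bases before to 50 after the annotated start, and 7 of the 10 genes were matched. The 5 below are shown because their genes differed in response: CXCL8, CXCL5 and CXCL1 fell, CXCL2 did not pass the test and CCL20 rose. Capitals mark matches to GGNNNTTCC, a part of the NF-kappaB site, on either strand.
CXCL8 promoter, chr4:73740319-73740618, plus strand: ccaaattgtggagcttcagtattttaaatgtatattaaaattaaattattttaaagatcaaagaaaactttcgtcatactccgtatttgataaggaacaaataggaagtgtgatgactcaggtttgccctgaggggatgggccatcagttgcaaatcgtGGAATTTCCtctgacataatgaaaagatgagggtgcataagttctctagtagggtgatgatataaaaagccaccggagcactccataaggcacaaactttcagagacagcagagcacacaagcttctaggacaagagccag
CXCL5 promoter, chr4:73998628-73998927, minus strand: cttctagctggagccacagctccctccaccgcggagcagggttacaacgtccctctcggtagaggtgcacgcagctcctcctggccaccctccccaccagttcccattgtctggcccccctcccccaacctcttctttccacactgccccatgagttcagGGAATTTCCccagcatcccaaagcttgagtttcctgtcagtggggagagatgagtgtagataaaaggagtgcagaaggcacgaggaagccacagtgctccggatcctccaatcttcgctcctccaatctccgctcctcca
CXCL1 promoter, chr4:73869143-73869442, plus strand: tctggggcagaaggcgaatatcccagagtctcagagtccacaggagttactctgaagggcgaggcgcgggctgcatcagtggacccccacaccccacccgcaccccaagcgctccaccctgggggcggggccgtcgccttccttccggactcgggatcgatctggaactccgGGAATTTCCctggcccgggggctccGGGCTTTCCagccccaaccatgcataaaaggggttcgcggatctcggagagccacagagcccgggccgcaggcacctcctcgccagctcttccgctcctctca
CXCL2 promoter, chr4:74099146-74099445, minus strand: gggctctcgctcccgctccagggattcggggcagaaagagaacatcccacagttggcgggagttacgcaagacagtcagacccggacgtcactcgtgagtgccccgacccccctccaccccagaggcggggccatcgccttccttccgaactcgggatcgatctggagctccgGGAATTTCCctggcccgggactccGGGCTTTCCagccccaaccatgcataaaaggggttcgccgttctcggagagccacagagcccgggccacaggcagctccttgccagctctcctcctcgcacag
CCL20 promoter, chr2:227813592-227813891, plus strand: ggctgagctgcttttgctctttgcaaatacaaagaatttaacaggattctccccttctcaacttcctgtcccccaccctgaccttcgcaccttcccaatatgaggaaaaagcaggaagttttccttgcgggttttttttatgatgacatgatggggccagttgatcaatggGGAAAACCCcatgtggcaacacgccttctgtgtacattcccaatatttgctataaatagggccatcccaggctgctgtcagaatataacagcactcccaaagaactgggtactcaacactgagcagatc
All 7 matched promoters held the motif, which 20.1% of 35116 RefSeq promoters of that length held. CXCL1, CXCL2 and CXCL3 had 2 matches each, at like places, and CXCL5, CXCL6, CXCL8 and CCL20 had 1. The letters GGAATTTCC stood in 6 of them, from 91 to 77 bases before the start, and CCL20 had GGGTTTTCC on the reverse strand. The AP-1 motif TGANTCA (both strands) was found in CXCL8 alone among the 7, against 7.71% of RefSeq promoters, and TATAAA (gene strand) in CXCL8 and CCL20, against 7.33%. The CXCL1 and CXCL2 promoters were identical at 71.9% of aligned positions, the CXCL1 and CXCL3 promoters at 82.5% and the CXCL5 and CXCL6 promoters at 83.1%. Promoters this alike are not separate cases to set against the RefSeq shares. A match describes letters and is not a measured binding site.

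Values are FPKM, fragments assigned to a gene relative to its length and to the library's total, as the authors deposited them. Library totals ran from 18690100 to 24919568 fragments in phosphoramidon libraries and from 23493829 to 24815378 in untreated libraries. Changes were tested with limma on log2(FPKM + 0.1) after scaling between libraries, and a gene was called at an adjusted p below 0.05. On this scale the change of a low gene is understated. Of 16177 genes tested, 33.5% were called, 15.6% higher and 17.9% lower. Without scaling between libraries the calls numbered 3645 higher and 2165 lower, against 2530 higher and 2897 lower with it. The renal factor PAX8 was well expressed (61.5 to 71.7 FPKM), as were 7 of 8 epithelial markers, with CDH1 (E-cadherin) low at 0.357 to 0.631 FPKM, whereas the proximal tubule markers SLC22A6 and SLC22A8 were listed at 0 and LRP2, CUBN and HNF4A did not exceed 0.0665 FPKM in any library.

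Most chemokine mRNA in these cells was CXCL8, which by mean deposited FPKM fell by 32.2% after phosphoramidon. The deposited means of CXCL16 and CCL20 were 3.29 and 2.74 times those of untreated cells. On the scaled log2 values that were tested, the folds over untreated were 0.646 for CXCL8, 2.90 for CXCL16 and 2.49 for CCL20. Among the 8 chemokine genes with enough fragments to test (at least 10 in at least 3 libraries), 3 fell (CXCL8, CXCL5 and CXCL1), 3 rose (CXCL16, CCL20 and CX3CL1), and CXCL2 and CXCL3 did not pass. CXCL1 passed the filter mainly through the untreated group. The share called was 75%, against 33.5% of all tested genes, in a list chosen with earlier results of these data known. The groups did not overlap in the 6 called genes, as in 49.6% of all tested genes. The median log2 fold change of the 8 was 0.07, against 0.01 over all tested genes. CXCL6 and CCL2 were too low to test. The test against 1.5-fold, which 0.804% of all tested genes passed and 0.148% passed as higher, called CCL20 (limma treat adjusted p = 0.0382) and narrowly not CXCL16 (adjusted p = 0.0552). The CCL20 call past 1.5-fold was lost without phosphoramidon replicate 2 or 3 or untreated replicate 1 or 2 (adjusted p = 0.118 to 0.155), and also with a pseudocount of 1 (0.455), no filter (0.265) or a constant prior (0.114).

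**Figure D1:**
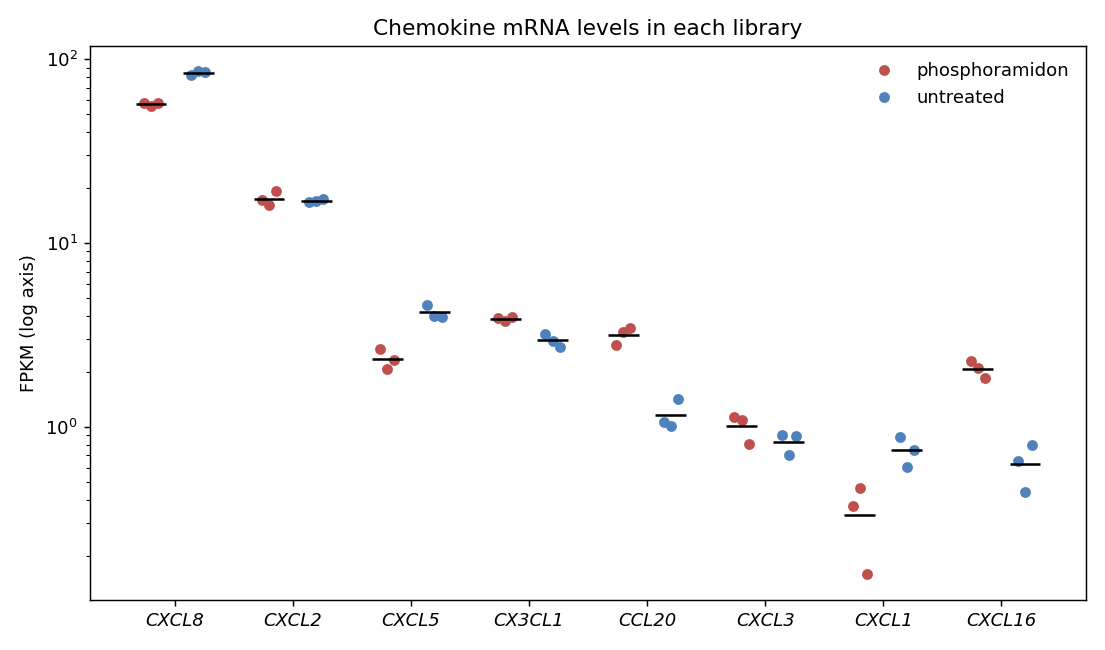
FPKM of the 8 tested chemokine genes in each library on a log axis, phosphoramidon left of untreated, with a bar at the mean of 3 libraries. CXCL8 lies near 57.2 against 84.3 FPKM, and the groups are apart for CXCL8, CXCL5, CX3CL1, CCL20, CXCL1 and CXCL16 but overlap for CXCL2 and CXCL3.

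CXCL8, or interleukin-8, the main human neutrophil attractant (ENSG00000169429, chromosome 4, 73740506 to 73743716, plus strand), had 58.0, 55.5 and 57.9 FPKM in the 3 phosphoramidon libraries and 81.7, 86.1 and 85.0 FPKM in the 3 untreated libraries. The groups did not overlap, and the gap between them was many times the spread within either. The log2 fold change was -0.63 ± 0.04 (SE, limma adjusted p = 1.81e-05). By mean level CXCL8 ranked 520 among the 16177 tested genes after phosphoramidon and 340 in untreated cells.

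CXCL5, an epithelial neutrophil attractant (ENSG00000163735, chromosome 4, 73995642 to 73998779, minus strand), had 2.66, 2.06 and 2.31 FPKM after phosphoramidon and 4.60, 4.04 and 3.97 FPKM in untreated libraries. Each phosphoramidon library lay below each untreated one. The log2 fold change was -0.89 ± 0.11 (SE, adjusted p = 4.76e-04).

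CXCL1, which was first described as a melanoma growth factor (ENSG00000163739, chromosome 4, 73869393 to 73871242, plus strand), was low, with 0.372, 0.464 and 0.158 FPKM after phosphoramidon and 0.887, 0.603 and 0.746 FPKM in untreated libraries. These values stand for 9, 15 and 4 fragments after phosphoramidon and 27, 19 and 24 in untreated cells, so it passed the filter mainly through the untreated group. It had the lowest fold change of the tested chemokine genes, -1.09 ± 0.29 on the log2 scale (SE, adjusted p = 0.0218). The call was lost without untreated replicate 1 (adjusted p = 0.0697) and without untreated replicate 3 (adjusted p = 0.0553), and the fold change ran down to -0.42 with a pseudocount of 1.

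CXCL2 (ENSG00000081041, chromosome 4, 74097035 to 74099293, minus strand), the close relative of CXCL1 and here the second most abundant chemokine mRNA, had 17.2, 16.0 and 19.1 FPKM after phosphoramidon and 16.7, 16.9 and 17.3 FPKM in untreated libraries. The untreated values lay inside the range of the phosphoramidon ones. The log2 fold change was -0.04, with a 95% interval from -0.17 to 0.10 (adjusted p = 0.689), and its sign turned in the values as deposited (0.04). CXCL3 (ENSG00000163734, chromosome 4, 74036589 to 74038807, minus strand) had 1.13, 1.09 and 0.806 FPKM after phosphoramidon and 0.902, 0.704 and 0.890 FPKM in untreated libraries. The ranges overlapped, and with a log2 fold change of 0.18 and a 95% interval from -0.20 to 0.56 (adjusted p = 0.451) a change was not shown.

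The 3 genes CXCL1, CXCL2 and CXCL3 are near copies in part. In GENCODE 29 transcripts, 4.81% of the 50-base windows of CXCL1, 12.5% of those of CXCL2 and 6.01% of those of CXCL3 also occur in another gene, and those other genes are the remaining 2 of the trio. How the authors' counting shared out such reads is not given in the sources used here, so values of the trio carry that uncertainty. CXCL6 (ENSG00000124875), the sixth gene of this type, had 0 fragments in each phosphoramidon library and 1 in each untreated library. A count of 0 allows up to 3 fragments, or 0.0584 to 0.0779 FPKM in these libraries (counting error only), which is above the highest untreated value of 0.0209 FPKM, so a difference was not detectable at this depth.

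CXCL16, the membrane-anchored ligand of CXCR6 that also acts as a scavenger receptor for oxidised lipoprotein (ENSG00000161921, chromosome 17, 4733526 to 4739922, minus strand), had 2.280, 2.098 and 1.848 FPKM after phosphoramidon and 0.655, 0.442 and 0.794 FPKM in untreated libraries. Each phosphoramidon library lay well above the highest untreated value. Its log2 fold change of 1.54 ± 0.19 (SE, adjusted p = 5.46e-04) ranked 7 from the top of all tested genes. Of its exon bases, 3.04% overlap MED11 on the other strand, where fragments cannot be assigned if strand was not used. MED11, named after its values were seen, had 3.31 ± 0.365 FPKM after phosphoramidon and 3.19 ± 0.0846 FPKM in untreated cells (SD, n = 3 each).

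CX3CL1, or fractalkine, the other membrane-anchored ligand (ENSG00000006210, chromosome 16, 57372458 to 57385048, plus strand), had 3.905, 3.76 and 3.95 FPKM after phosphoramidon and 3.19, 2.94 and 2.72 FPKM in untreated libraries. The groups were apart, by less than for CXCL16. The log2 fold change was 0.31 ± 0.08 (SE, adjusted p = 0.0144), and the call was lost when no filter on low genes was set (adjusted p = 0.0607).

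CCL20, the ligand of CCR6 (ENSG00000115009, chromosome 2, 227805739 to 227817564, plus strand), had 2.79, 3.30 and 3.46 FPKM after phosphoramidon and 1.07, 1.01 and 1.42 FPKM in untreated libraries. The lowest phosphoramidon value was nearly double the highest untreated one. The log2 fold change of 1.32 ± 0.14 (SE, adjusted p = 2.25e-04) ranked 28 from the top of all tested genes. CCL2, the monocyte attractant MCP-1 (ENSG00000108691, chromosome 17, 34255218 to 34257203), had 2, 1 and 1 fragments after phosphoramidon and 3 in each untreated library. Both groups lay at or under the floor of 3 fragments, so no fold is given.

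**Figure D2:**
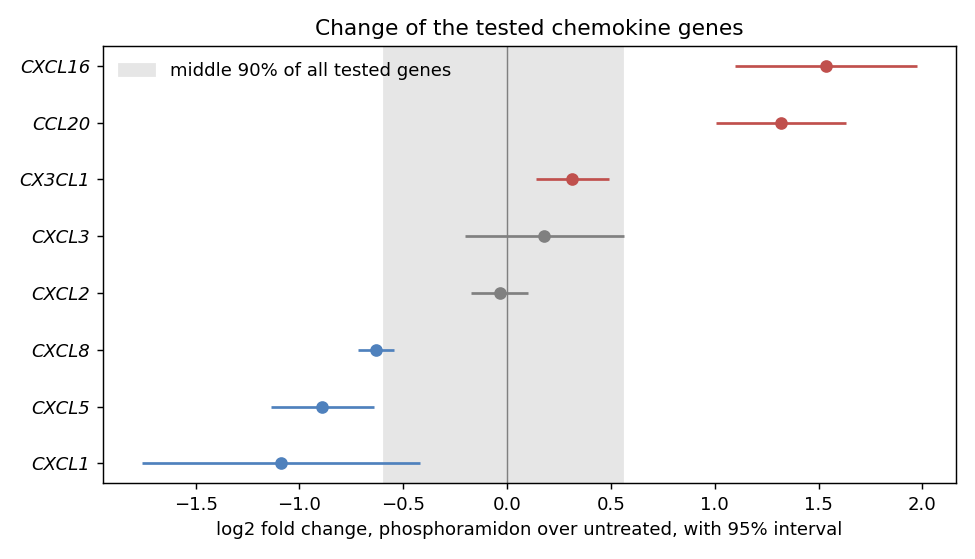
Log2 fold change of the 8 tested chemokine genes, phosphoramidon over untreated, with 95% intervals, red for called higher, blue for called lower and grey for not called. The grey band is the middle 90% of all tested genes, from -0.59 to 0.56, and CXCL16, CCL20, CXCL8, CXCL5 and CXCL1 have their estimates outside it.

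Because FPKM is per length, levels can be ordered within a group. After phosphoramidon the order by mean was CXCL8 (57.2 FPKM), CXCL2 (17.4), CX3CL1 (3.87), CCL20 (3.18), CXCL5 (2.34), CXCL16 (2.08), CXCL3 (1.01) and CXCL1 (0.331), and of these neighbours CXCL5 and CXCL16 had overlapping ranges. In untreated cells it was CXCL8 (84.3 FPKM), CXCL2 (17.0), CXCL5 (4.20), CX3CL1 (2.95), CCL20 (1.16), CXCL3 (0.832), CXCL1 (0.745) and CXCL16 (0.630), and the last 3 overlapped with their neighbours. CXCL16 thus stood at rank 6 after phosphoramidon and 8 in untreated cells, and CXCL5 at rank 5 after phosphoramidon and 3 in untreated cells.

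The 10 genes summed to 88.4, 84.3 and 89.6 FPKM after phosphoramidon and to 110, 113 and 113 FPKM in untreated libraries. CXCL8 held 65.4 ± 0.623% of this sum after phosphoramidon and 75.3 ± 0.962% in untreated cells (SD, n = 3 each). Without CXCL8 the sums were 30.3 ± 1.42 FPKM after phosphoramidon and 27.6 ± 0.781 FPKM in untreated cells. A ratio of 2 genes within a library does not depend on scaling between libraries. That of CXCL8 to CXCL2 was 3.38, 3.47 and 3.04 after phosphoramidon and 4.89, 5.10 and 4.91 in untreated libraries, with no overlap. CXCL16, CX3CL1 and CCL20 together made 9.13 ± 0.145 FPKM after phosphoramidon and 4.75 ± 0.310 FPKM in untreated cells.

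Around the cluster on chromosome 4, 27 measured genes lay in it or within 500 kb, and 14 were tested. None of the 14 rose by limma's test and 7 fell: CXCL8, CXCL1 and CXCL5, and outside the cluster AFP (alpha-fetoprotein) and the EGF-receptor ligands EPGN, EREG and AREG. Over all tested genes, 15.6% were called higher and 17.9% lower. CXCL1, AFP and EPGN were low, with means of 0.216 to 0.359 FPKM after phosphoramidon and 0.403 to 0.745 FPKM in untreated cells. AREG, or amphiregulin, had 52.6 ± 5.91 FPKM after phosphoramidon and 99.6 ± 2.23 FPKM in untreated cells (SD, n = 3 each, log2 fold change -0.998 ± 0.08, SE, adjusted p = 9.04e-05). EREG, or epiregulin, had 25.9 ± 0.207 FPKM after phosphoramidon and 44.9 ± 0.720 FPKM in untreated cells. The nearest tested genes on either side of the cluster were not called, with log2 fold changes of -0.23 for RASSF6 and 0.03 for MTHFD2L. CXCL3, CXCL2 and MTHFD2L, which lie side by side among the tested genes, thus stood between CXCL5 and EPGN, which both fell. In the list of 10 neighbours, which reaches beyond this window, PARM1 rose (0.64) and BTC, named after its value was seen, fell (-0.50).

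**Figure D3:**
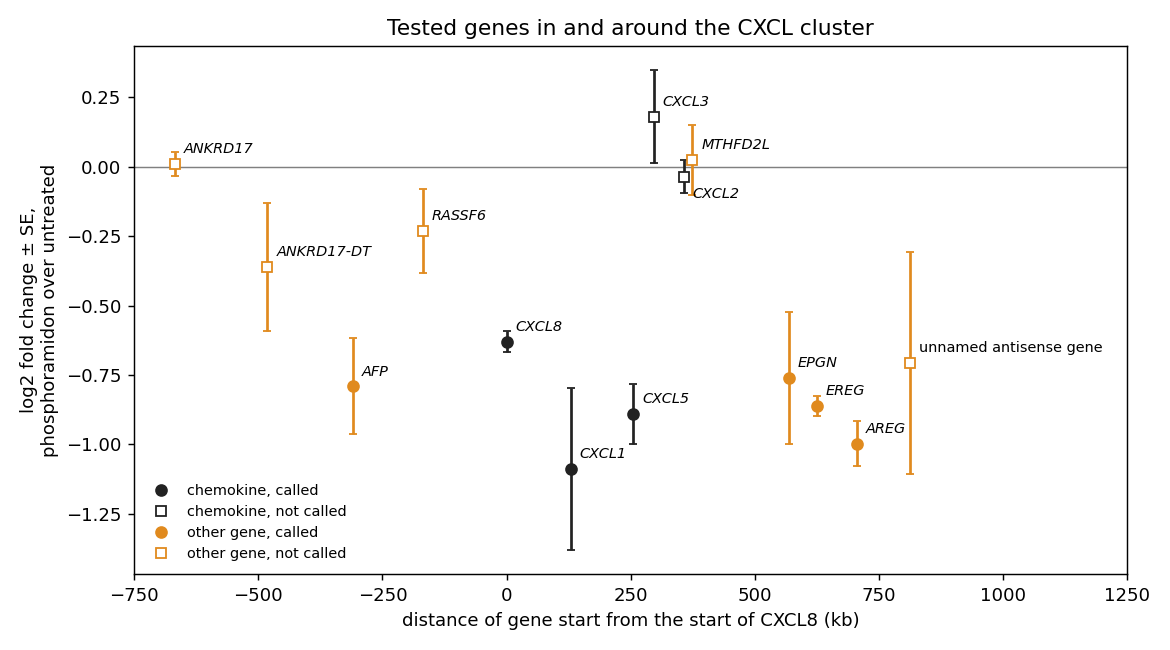
Log2 fold change ± SE (phosphoramidon over untreated) of the tested genes in and around the chromosome 4 cluster, against the distance of each gene's start from that of CXCL8 in kb. Filled circles are called genes and open squares are not; CXCL8, CXCL1 and CXCL5 lie between -1.09 and -0.63, and CXCL3 and CXCL2 near 0.

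The chemokine mRNAs also differ in their tails. ATTTA, the core of AU-rich elements bound by decay factors, occurred 13.9 times per kb in the longest annotated 3′ UTR of CXCL2, 10.4 in CXCL3, 7.19 in CXCL8, 7.08 in CXCL1, 6.24 in CCL20, 5.51 in CXCL5 and 5.36 in CXCL6. CCL2 had 2.11 per kb, CXCL16 had 1.02 and CX3CL1 had 0.992. The median of 12957 tested genes was 1.58 per kb, and 98.3% of them had a lower density than CXCL8. The longer form ATTTATTTA occurred in CXCL1, CXCL2 and CXCL8, and in 8.13% of the tested genes. CXCL8 and CXCL5, which fell, were thus dense in ATTTA. So was CXCL1, whose lower call rests on few fragments and passed the filter mainly through the untreated group. Of the genes that rose, CCL20 was dense, and CXCL16 and CX3CL1 lay below the median. CXCL2 and CXCL3, which did not pass, had the highest densities of the 10.

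Among other genes of chemokine signalling, those of the receptors were nearly silent. CXCR2 was listed at 0, and CXCR1, CX3CR1, CCR6, ACKR1 and ACKR3 had at most 2 fragments in any library. ACKR2, too low to test, had 5, 6 and 6 fragments after phosphoramidon and 0, 0 and 4 in untreated cells. CXCR6, the receptor of CXCL16, had 9, 8 and 7 fragments after phosphoramidon and 12, 21 and 16 in untreated cells. It passed the filter through the untreated group alone and was not called (limma adjusted p = 0.0681). Of 3 tested receptors, 1 was called (33.3%, near the 33.5% of all tested genes). This was CCR1, with 0, 3 and 3 fragments after phosphoramidon and 12, 18 and 13 in untreated cells (limma adjusted p = 0.00197). CCR1 passed the filter through the untreated group. The third, CCR10, went the other way without passing, with 8, 13 and 16 fragments after phosphoramidon and 5, 3 and 10 in untreated cells, ranges that overlapped in fragments but not in FPKM (log2 fold change 0.71, adjusted p = 0.0563). Among 38 other chemokine ligands, 23 were measured and 2 tested, of which CKLF was not called (0.19, adjusted p = 0.463). CCL28, a mucosal chemokine, rose, with 6.34 ± 0.840 FPKM after phosphoramidon and 4.60 ± 0.139 FPKM in untreated cells (SD, n = 3 each, log2 fold change 0.38 ± 0.10, SE, adjusted p = 0.0195).

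Of 20 NF-kappaB components and feedback genes, all tested, 6 rose, 3 fell and 11 did not pass (45% called, against 33.5% of all tested genes). The median log2 fold change of the 20 was 0.08. The inhibitor NFKBIA had 31.2 ± 1.248 FPKM after phosphoramidon and 22.6 ± 1.12 FPKM in untreated cells (SD, n = 3 each, log2 fold change 0.40 ± 0.05, SE, adjusted p = 4.22e-04). RELB (0.42) and NFKB1 (0.18), subunits of the factor, and the kinase CHUK (0.27) also rose, and the coregulator BCL3 fell (-0.34). RELA, the main activating subunit, had a log2 fold change of -0.18 (adjusted p = 0.0571) and the feedback gene TNFAIP3 of -0.16 (adjusted p = 0.206). NFKB2 (0.22) and NFKBIZ (0.19), which rose, and NFKBIB (-0.21) and TNIP2 (-0.19), which fell, were named after their values were seen.

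Of 21 tested cytokines, receptors and adaptors upstream of chemokines, 4 rose and 5 fell (42.9% called, against 33.5% of all tested genes). TNF, an inducer of many chemokines and a low gene here, had 0.748 ± 0.146 FPKM after phosphoramidon and 0.296 ± 0.113 FPKM in untreated cells (log2 fold change 1.07 ± 0.23, SE, adjusted p = 0.00734). TLR2 (0.52), IL6 (0.22) and TNFRSF12A (0.27) also rose. The receptors of TNF and interleukin-1, TNFRSF1A (-0.38) and IL1R1 (-0.51), and the adaptor kinase IRAK1 (-0.33) fell, as did IL18 (-0.27) and LTBR (-0.15). TNF, IL6, TNFRSF12A, IL18 and LTBR were named after their values were seen. Of 12 AP-1 and C/EBP factors, 1 rose, ATF3 (0.64), and 6 fell, among them FOSB (-1.14), FOSL2 (-0.40) and CEBPD (-0.30). The share called was 58.3%, against 33.5% of all tested genes.

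Of 14 factors that bind AU-rich elements or act in mRNA decay, 3 rose and 2 fell. The share called, 35.7%, was near the 33.5% of all tested genes. ZFP36, or tristetraprolin, which speeds decay of AU-rich mRNAs, had 8.30 ± 0.345 FPKM after phosphoramidon and 10.6 ± 0.208 FPKM in untreated cells (log2 fold change -0.41 ± 0.05, SE, adjusted p = 4.67e-04). Its relatives moved apart, with ZFP36L1 lower (-0.39) and ZFP36L2 higher (0.33). RC3H2 (0.27) and RC3H1 (0.16) rose, RC3H1 being named after its value was seen.

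Of 18 tested genes listed for chemokine shedding and cleavage, 2 rose and 8 fell (55.6% called, against 33.5% of all tested genes). RHBDF1 and RHBDF2, which are in the list but are not active peptidases, were not called. The sheddases of CXCL16 and CX3CL1 were not called, with log2 fold changes of 0.10 for ADAM10 (adjusted p = 0.0865) and 0.00 for ADAM17 (adjusted p = 0.957). The largest falls were those of MMP1 (-2.02), MMP7 (-1.27), the plasminogen activator PLAU (-0.98) and CTSS (-0.75). ECE1 (0.55) and PLAT (0.31) rose, and both were chosen after their values were known. Among 16 tested genes of heparan sulfate, the sugar chain that holds chemokines at cell surfaces, 5 rose and 6 fell. The share called was 68.8%, against 33.5% of all tested genes. The epimerase GLCE rose, with 5.19 ± 0.282 FPKM after phosphoramidon and 2.31 ± 0.0691 FPKM in untreated cells (log2 fold change 1.07), as did EXT2 (0.44) and HS6ST1 (0.52) and the core proteins GPC1 (0.22) and SDC2 (0.19). The core proteins SDC1 (-0.29), GPC4 (-0.41) and GPC6 (-0.18) fell, as did the sulfotransferases NDST1 (-0.30), HS6ST2 (-0.41) and HS3ST3A1 (-0.46). Of these, the core proteins, HS6ST2 and HS3ST3A1 were chosen after their values were known.

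**Figure D4:**
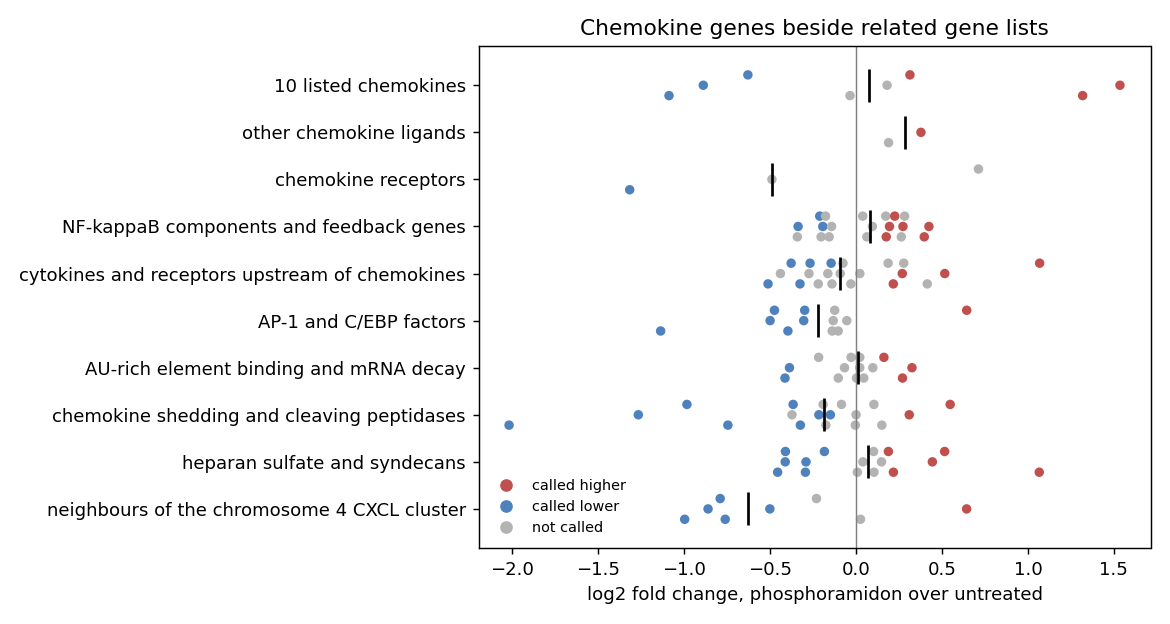
Log2 fold change (phosphoramidon over untreated) of each tested gene in the chemokine list and the related lists, red for called higher, blue for called lower and grey for not called, with a black bar at each list's median. The chemokine genes run from -1.09 to 1.54 with 3 called in each direction, and the NF-kappaB genes from -0.34 to 0.42.

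Markers of epithelium and of other cells were read beside these results. The 8 epithelial markers summed to between 416 and 444 FPKM after phosphoramidon and between 543 and 582 FPKM in untreated cells. The keratins KRT19 (-1.18, past 1.5-fold), KRT8 (-0.57) and KRT18 (-0.53) fell, CDH2 (N-cadherin) rose (0.17), and EPCAM, CDH1, CLDN1 and TJP1 were not called. Leukocyte markers, 10 of 12 measured, summed to between 1.59 and 1.84 FPKM after phosphoramidon and between 2.22 and 2.60 FPKM in untreated cells. CD3D and MS4A1 were listed at 0 and PTPRC did not exceed 0.00584 FPKM, and of 3 tested markers 2 fell, ITGAX and CSF1R. Fibroblast markers, all 8 measured, summed to between 23.5 and 25.01 FPKM after phosphoramidon and between 60.9 and 65.7 FPKM in untreated cells, with 4 of 4 tested markers lower. LUM, with 19.9 FPKM after phosphoramidon and 53.0 in untreated cells, and COL1A1, with 4.12 FPKM after phosphoramidon and 10.1 in untreated cells, made up nearly all of that sum. COL3A1 was listed at 0, and COL1A2 and PDGFRA did not exceed 0.0169 FPKM. Endothelial markers did not exceed 0.286 FPKM in sum in any library. For comparison with these marker calls, 15.6% of all tested genes were called higher and 17.9% lower. The part of these marker changes in the chemokine values was not tested. In bulk RNA, fewer cells making a chemokine and less of its mRNA per cell cannot be told apart.

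The genes most like the chemokine genes at each end were sought by Pearson's r of the scaled log2 values over the 6 libraries, as a description. For CXCL16 they were KPNA4, LMLN and CDC23 (r = 0.996 to 0.998), which changed far less (0.13 to 0.39 on the log2 scale). For CXCL1 they were NOP53-AS1, PALLD and SCNM1 (r = 0.995 to 0.998, log2 fold changes -0.86 to -0.13). With 6 points in 2 groups such values mostly restate the group difference, and 30 genes had r above 0.99 with CXCL16.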

How the data were processed

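RNA-seq libraries of HK-2 cells (3 with phosphoramidon for 24 h, 3 untreated) were read from the FPKM values that the authors deposited for each library. HISAT2 2.1.0 and featureCounts 1.6.0, Trimmomatic 0.38, DESeq2 1.22.1, CASAVA, MultiQC, FastQC and the build GRCh38 are listed, without their roles, per the submitters' processing notes. Not given in the sources used here are the annotation release, strand use and whether pairs were counted. FPKM times gene length fell on whole multiples of a step per library, which gave totals and fragments per gene (within 0.05). The GENCODE 29 merged exon length gave whole fragments for 79.2% of genes above 0 and for 4 of the 10 chemokine genes. For the others the nearest length that did was used (within 6.8% for these genes). FPKM were divided by trimmed-mean (TMM) factors of 0.964 to 1.04 from those fragments and tested with limma 3.58.1 (R 4.3.3, trended and robust prior) on log2(FPKM + 0.1), with Benjamini-Hochberg adjustment over 16177 genes and 95% intervals. Each level and each SD is of the deposited FPKM.

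The chemokine genes and gene lists were chosen with earlier results of these data known. Beyond the 10 chemokine genes, genes are named mainly by rule. The rule takes up to 4 called genes with the lowest p-values per list, and set receptors, sheddases, NF-kappaB genes and neighbours. It also takes 3 genes of like pattern for the highest and lowest fold change. Genes marked as named or chosen after their values were seen fall outside this rule, as do others such as EPGN, CCR10, CKLF, RHBDF1 and RHBDF2. Names came from a table that matched 37892 IDs, and coordinates from GENCODE 29. The fit was tested on simulated data with known changes. Alternatives were the pseudocount, the filter, the factors, voom, the variance prior, a replicate block and leaving out each library.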

Additional observations from a re-analysis of the deposited data

How the results depend on the processing

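CXCL8, CXCL5, CXCL16 and CCL20 passed limma's test with the same direction under each of the 15 alternatives run, with log2 fold changes from -0.65 to -0.56, -0.99 to -0.69, 0.88 to 1.70 and 0.91 to 1.46. CX3CL1 lost its call without a filter (adjusted p = 0.0607, range over alternatives 0.00143 to 0.0607), and CXCL1 did so there (adjusted p = 0.108, range 0.0113 to 0.108) and without untreated replicate 1 or 3. CXCL2, never called, changed sign in the values as deposited (0.035) and ran from -0.092 to 0.025 when a library was left out, positive without phosphoramidon replicate 2. The number of chemokine genes past 1.5-fold, 1 as reported, was 0 with a pseudocount of 1, without a filter and with a constant prior, and 2 (CCL20 and CXCL16) with a pseudocount of 0.01, with the values as deposited and with voom. It ran from 0 to 2 when a library was left out, and was 0 without phosphoramidon replicate 2 or 3 or untreated replicate 1 or 2. CCL20's adjusted p against 1.5-fold thus ran from 0.00848 to 0.455. Without a filter 3545 genes were called, 1378 of them higher. The cause of these changes was not tested. Deviations of same-numbered libraries correlated at 0.112, -0.0196 and -0.0089, against -0.103 to 0.114 between differently numbered ones. Pairing was thus not seen in expression, but so few values cannot tell whether such libraries shared a culture. A replicate block gave 5442 calls against 5427, with the same 6 chemokine genes called. With 28 fragments after phosphoramidon and 70 in untreated cells for CXCL1, 0 and 3 for CXCL6 and 4 and 9 for CCL2, depth limits what can be said of these genes.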
